A study of Mus musculus with 12 samples.

Results

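The genes described here were 10 members of the NF-κB system, chosen by symbol: the subunits Rela, Relb, Nfkb1 and Nfkb2, the inhibitors Nfkbia, Nfkbib, Nfkbiz and Tnfaip3, and the early targets Icam1 and Tlr2. All 10 were found, each as 1 row, among the 54838 Ensembl genes of a raw count table of mouse liver RNA-seq. The study asked how zinc in the drinking water and the synthetic glucocorticoid dexamethasone (Dex) act on gene expression, alone and together. C57BL/6J mice, which the methods describe as females bought from a breeder, were given 25 mM ZnSO4 in the drinking water, or none, over 7 days and then received 200 µg Dex in PBS or PBS alone intraperitoneally, and the liver was taken 2 h later. Each of the 4 groups held 3 mice: water-PBS, water-Dex, zinc-PBS and zinc-Dex. No group was challenged with a cytokine or a bacterial product, so all values refer to unchallenged livers after an injection.

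NF-κB is a family of dimeric transcription factors that wait in the cytoplasm, bound to inhibitor proteins of the IκB family. Signals from cytokine receptors and Toll-like receptors activate a kinase complex that marks the inhibitors for destruction, and the freed dimers enter the nucleus and switch on genes for chemokines, adhesion molecules and their own inhibitors. Nfkbia and Tnfaip3 are therefore both targets and brakes of the pathway, and glucocorticoids are known both to oppose NF-κB and to raise Nfkbia transcription in several cell types.

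The libraries held 9091152 to 12303527 counts, and 26191 genes had at least 1 count in the series. The genes that report on the treatments matched the labels: the glucocorticoid target Fkbp5 stood at 7988 to 8673 normalized counts (raw counts divided by a size factor for library depth) in the 6 Dex mice and at 536 to 1490.2 in the 6 PBS mice, and the zinc importer Slc39a4 at 186 to 259 in the 6 zinc mice and at 550.3 to 747 in the 6 water mice. One liver stood apart for the genes of interest, zinc-PBS replicate 1. This had been seen in these data before the genes were chosen, so its pattern is given as a description, and the tests it could move are given with and without it. Of 9574 genes averaging 50 or more normalized counts, 55 (0.574%) lay over 2-fold above the other 2 mice of its group in this library, against 6 to 39 in the other 11 libraries, and 6 of the 10 NF-κB genes showed such an excess there, counting Relb, whose mean was lower. No other library had an NF-κB gene over 2-fold above its group mates.

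In that liver 7 of the 10 genes were well above the other zinc-PBS mice, and the remaining 3 were not. The ubiquitin-editing enzyme Tnfaip3 (A20), which shuts down signals on their way to NF-κB, had 11.5 times the mean of zinc-PBS replicates 2 and 3. Nfkbiz, a nuclear IκB that helps to switch on late inflammatory genes, had 8.57 times that mean. The ratio was 5.32 for Tlr2, 4.47 for Icam1, 3.38 for Nfkbia, 2.68 for Relb and 1.94 for Nfkb2. The ratios of Nfkbib, Nfkb1 and Rela were 1.09, 0.998 and 0.94. The excess was thus seen in targets, in inhibitors and in 2 of the 4 subunits, while the transcripts of Rela and Nfkb1 were at the level of the other mice. For 6 genes this liver was the highest of all 12; the exception among the 7 was Nfkbia, whose level of 1139 there lay inside the range of the 6 Dex mice.

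**Figure D1:**
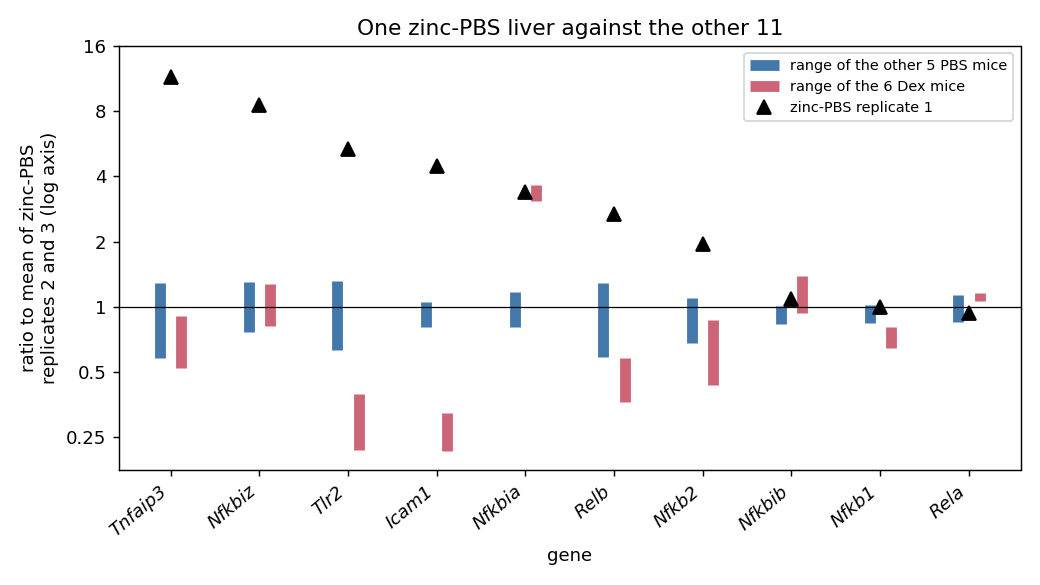
Normalized counts of each NF-κB gene in zinc-PBS replicate 1 (triangle), the range over the other 5 PBS mice (blue bar) and the range over the 6 Dex mice (red bar), each divided by the mean of zinc-PBS replicates 2 and 3, on a log axis. Tnfaip3 is 11.5 times that mean in the single liver, and Nfkbia is the only one of the raised genes for which the Dex mice reach as high.

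Markers of other cells were compared in the same liver, and their part in the pattern was not tested. The summed level of 9 neutrophil markers was 152 normalized counts in zinc-PBS replicate 1 and 47.2 to 84.2 in the other 5 PBS mice. Of these markers, S100a9 stood at 60.5 and S100a8 at 37.9, while Mpo was at 0 in all 12 livers and Ly6g and Camp at 0 in this one. The sum of 7 lymphocyte markers was 58.7, against 35.8 to 46.2. The 8 Kupffer cell markers summed to 5558, inside the range of 4916 to 6771 in the other PBS mice, as did those of sinusoidal endothelial cells, stellate cells and hepatocytes inside their own ranges. Saa1, an acute phase gene that hepatocytes switch on in response to cytokines, was at 2865 in this liver and at 191 to 1002 in the other 5 PBS mice. Of 8 acute phase genes, this liver was the highest of the 12 for 3 (Saa1, Saa2 and Saa3). Its level was 4.42 times the water-PBS mean for Lcn2 and 1.89 times for Hp, genes for which the Dex livers were higher still. It was 0.925 times that mean for Orm1, 0.936 times for Orm2 and 1.26 times for Fgb. In whole liver, fewer cells of a type and less RNA per cell cannot be told apart.

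Of the 4 subunits, Rela and Nfkb1 showed small differences between groups, while Relb and Nfkb2 differed more, in part through zinc-PBS replicate 1. Rela, the main transactivating subunit (p65), had 393, 435 and 355 normalized counts in the water-PBS mice and 393, 363 and 473 in the zinc-PBS mice. It had 485, 462 and 446 in the water-Dex mice and 462, 475 and 475 in the zinc-Dex mice. The PBS groups overlapped, and the 3 water-Dex livers all lay above the 3 water-PBS livers by a small margin. By DESeq2's Wald test in a fit of all 12 libraries, the log2 fold change of water-Dex over water-PBS was 0.23 with a 95% interval of 0.00 to 0.47 (adjusted p = 0.16), and without zinc-PBS replicate 1 it was also 0.23 (adjusted p = 0.188). No change of Rela past 0.50 on the log2 scale lay inside the interval of any Dex comparison.

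Nfkb1 codes for the precursor of p50, the usual partner of p65. Its levels were 321, 344 and 294 in water-PBS and 348, 343 and 354 in zinc-PBS livers, and 281, 224 and 275 in the water-Dex livers and 279, 264 and 270.1 in the zinc-Dex livers. All 6 Dex livers lay below all 6 PBS livers, the highest of them at 281 and the lowest PBS liver at 294. The log2 fold change was −0.30 with an SE of 0.118 for water-Dex against water-PBS (DESeq2 adjusted p = 0.0512, and 0.076 without zinc-PBS replicate 1) and −0.36 with an SE of 0.116 for zinc-Dex against zinc-PBS (DESeq2 adjusted p = 0.0127, and 0.0482 without that liver). A gene was called changed where the adjusted p was under 0.05 and the log2 change more than 0.8 in size, the thresholds of the study, so Nfkb1 was not called.

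Relb and Nfkb2 code for the subunits of the non-canonical pathway, and both are themselves NF-κB targets. Relb was the gene with the fewest reads of the 10, with 9 to 78 raw counts per library. It stood at 24.2, 33.7 and 15.4 normalized counts in water-PBS and 70.4, 27.1 and 25.3 in zinc-PBS livers, and at 15.2, 9.57 and 11.9 in the water-Dex livers and 14.1, 14.4 and 14.4 in the zinc-Dex livers. The 6 Dex livers again lay below the 6 PBS livers, the closest 2 values being 15.2 and 15.4. Relb was called lower in zinc-Dex than in zinc-PBS mice, with a log2 fold change of −1.51 (DESeq2 adjusted p = 0.00718), and lost the call without zinc-PBS replicate 1, with −0.87 (adjusted p = 0.177). In water-drinking mice its fitted level after Dex was 2.01-fold lower (DESeq2 adjusted p = 0.128, not called), and without that liver the log2 fold change was −1.01 (adjusted p = 0.0708, not called).

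Nfkb2, the precursor of p52, had 72.5, 82.8 and 104 normalized counts in water-PBS and 208, 97.0 and 117 in zinc-PBS livers. It had 55.8, 55.3 and 82.1 in the water-Dex livers and 91.2, 46.7 and 93.2 in the zinc-Dex livers. The Dex and PBS groups of water-drinking mice overlapped, and zinc-PBS replicate 1 alone stood outside the other 11. The call of lower Nfkb2 in zinc-Dex against zinc-PBS mice (log2 fold change −0.86, DESeq2 adjusted p = 0.0295) was lost without that liver, at −0.47 (adjusted p = 0.309). It was also lost without zinc-Dex replicate 2, at −0.61 (adjusted p = 0.185).

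**Figure D2:**
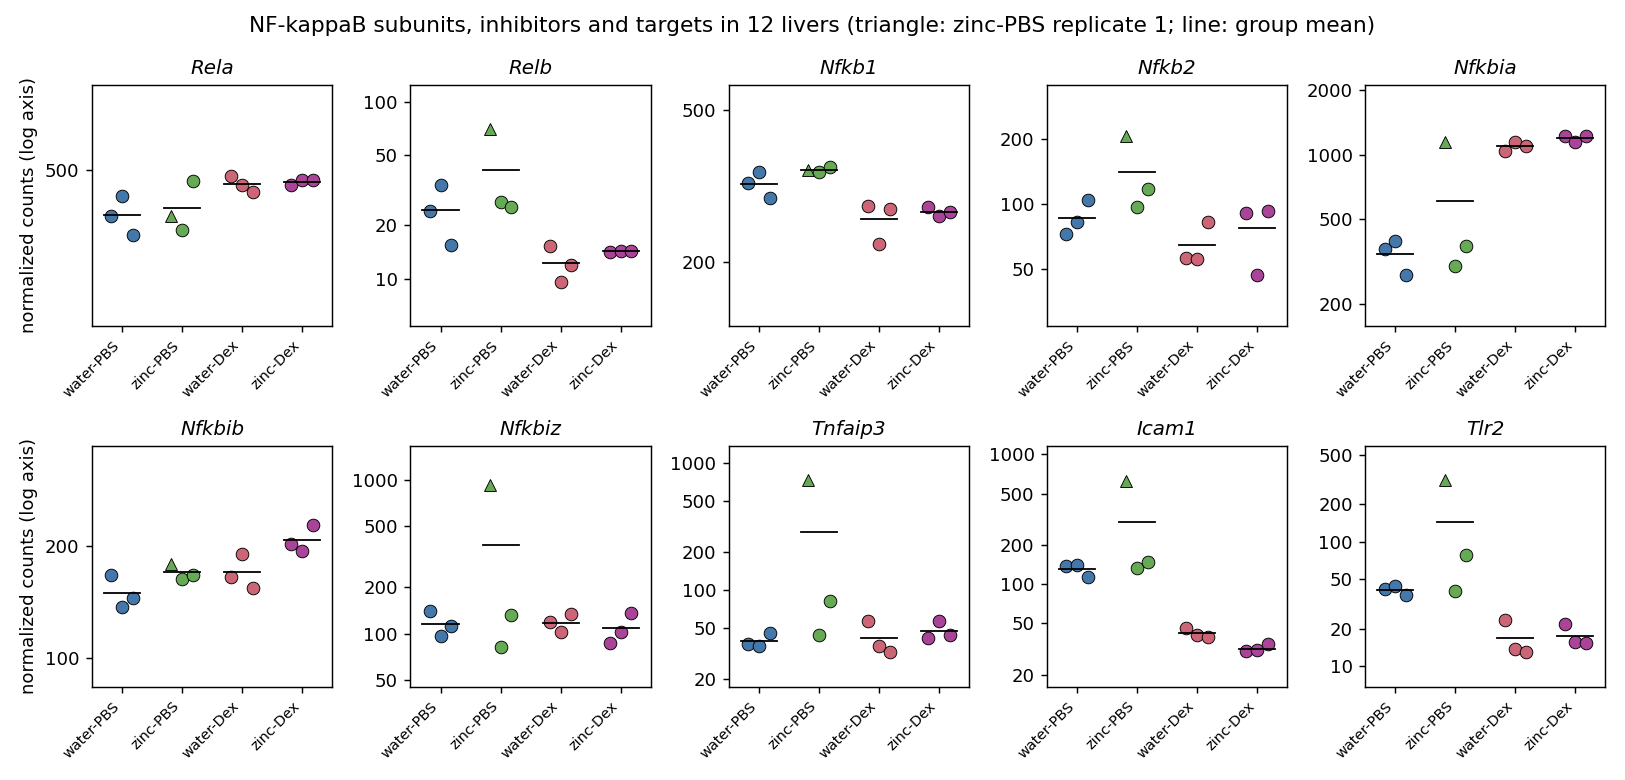
Normalized counts of the 10 genes in each of the 12 livers, on log axes, with 3 mice in each of the 4 groups, a line at the group mean and a triangle for zinc-PBS replicate 1. Nfkbia is high in all 6 Dex livers, at 1036 to 1227, Icam1 and Tlr2 are low in all 6, and the triangle stands alone above its group for 7 genes.

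Among the inhibitors, Nfkbia was higher after Dex in every comparison that leaves out the single high liver. Nfkbia codes for IκBα, which holds p65 dimers in the cytoplasm and is resynthesised within the first hour of a response. Its promoter and those of the other genes whose levels moved are printed here because the κB motif, the sequence that NF-κB dimers bind, lies close to the start site in several of them. Promoter windows of 250 bases before to 50 bases after the start came from RefSeq on GRCm38.p6 and covered 7 of the 10 genes with 10 windows, of which some overlap; Nfkbiz, Relb and Nfkb1 had no window. The κB consensus was searched on both strands, overlapping matches included, and 6 of the 10 windows, from 4 of the 7 genes (Nfkbia, Tnfaip3, Tlr2 and Nfkb2), held a match. Of all 32851 mouse promoter windows of the same length, 4.51% did. The windows below run 5′ to 3′ along each gene, with matches in capitals:
Nfkbia, chr12:55492598-55492897, minus strand: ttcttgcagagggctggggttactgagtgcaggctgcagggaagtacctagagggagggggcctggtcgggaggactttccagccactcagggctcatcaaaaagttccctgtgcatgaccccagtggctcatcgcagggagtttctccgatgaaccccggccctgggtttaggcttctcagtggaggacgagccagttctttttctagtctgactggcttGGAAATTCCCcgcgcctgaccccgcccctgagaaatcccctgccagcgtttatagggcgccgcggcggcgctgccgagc
Tnfaip3, chr10:19015361-19015660, minus strand: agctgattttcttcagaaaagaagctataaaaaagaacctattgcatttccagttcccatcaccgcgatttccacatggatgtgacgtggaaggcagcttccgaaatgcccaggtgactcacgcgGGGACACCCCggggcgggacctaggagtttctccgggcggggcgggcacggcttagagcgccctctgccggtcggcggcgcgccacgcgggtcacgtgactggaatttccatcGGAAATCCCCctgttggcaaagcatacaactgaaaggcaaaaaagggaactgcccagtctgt
Tlr2, chr3:83841559-83841858, minus strand: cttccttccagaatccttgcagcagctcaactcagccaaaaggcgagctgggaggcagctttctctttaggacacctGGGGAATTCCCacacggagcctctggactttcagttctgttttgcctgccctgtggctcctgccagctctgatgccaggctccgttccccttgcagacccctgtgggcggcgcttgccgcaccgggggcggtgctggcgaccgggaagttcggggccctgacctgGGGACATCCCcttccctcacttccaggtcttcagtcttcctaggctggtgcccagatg
Icam1, chr9:21015690-21015989, plus strand: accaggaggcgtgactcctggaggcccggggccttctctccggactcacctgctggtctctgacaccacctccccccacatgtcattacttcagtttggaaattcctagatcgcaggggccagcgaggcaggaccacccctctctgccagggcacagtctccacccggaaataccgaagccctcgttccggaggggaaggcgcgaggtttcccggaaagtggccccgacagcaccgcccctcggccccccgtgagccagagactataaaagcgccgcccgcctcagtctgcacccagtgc
Nfkb2, chr19:46304487-46304786, plus strand: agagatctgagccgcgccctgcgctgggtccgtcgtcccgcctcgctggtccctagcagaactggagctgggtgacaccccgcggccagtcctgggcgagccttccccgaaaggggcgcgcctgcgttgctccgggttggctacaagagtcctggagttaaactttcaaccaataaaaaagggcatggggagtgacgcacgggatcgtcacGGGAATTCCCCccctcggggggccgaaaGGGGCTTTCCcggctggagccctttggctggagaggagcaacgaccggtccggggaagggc
The Nfkbia match began 29 bases before the RefSeq start, and the nearer Tnfaip3 match began 12 bases before the RefSeq start of its window. The GENCODE genes Tnfaip3, Tlr2 and Nfkb2 begin upstream of these RefSeq starts, so distances in their windows hold for RefSeq only. The longer capital runs in Tlr2 and Nfkb2 each hold 2 overlapping matches. The Icam1 window held no match to the κB pattern searched, and neither did those of Rela and Nfkbib. The pattern asks for ggg at its start or ccc at its end. The stretch tggaaattcc in the printed Icam1 window departs from it only in the first base and was not counted. A window without a match may thus still hold a κB site. The glucocorticoid receptor half-site AGAACA, searched the same way, was found in 1 of the 10 windows, a second Tnfaip3 window, against 19.0% of all windows. These matches describe the printed letters only, since no binding was measured.

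Nfkbia had 362, 396 and 273 normalized counts in the water-PBS livers and 1036, 1149.7 and 1102 in the water-Dex livers. In zinc-drinking mice it had 1139, 302 and 372 after PBS and 1227, 1142 and 1225 after Dex. The 6 Dex livers formed a tight band from 1036 to 1227, and 5 of the 6 PBS livers lay at 273 to 396, far below it. In water-drinking mice Nfkbia rose by a log2 fold change of 1.67 (SE 0.444, 3.19-fold, DESeq2 adjusted p = 0.00149). Without zinc-PBS replicate 1 the same difference of 1.67 had an SE of 0.132 (adjusted p = 1.4e-34), since all groups share one estimate of each gene's spread. In zinc-drinking mice the log2 fold change was 0.99 (DESeq2 adjusted p = 0.104, not called) with that liver and 1.83 (SE 0.147, 3.56-fold, adjusted p = 2.4e-33) without it. The edgeR quasi-likelihood test called the rise in zinc-drinking mice also with all livers (log2 fold change 0.98, adjusted p = 0.0465). Nfkbia was thus the only one of the 10 genes called higher after Dex in water-drinking mice, where 4.89% of all genes tested were called higher.

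The other IκB genes did not show this rise. Nfkbib, which codes for IκBβ, a slower-turning inhibitor, had 167, 137 and 145 normalized counts in water-PBS and 179.6, 163 and 167 in zinc-PBS livers. It had 165, 191 and 154 in the water-Dex livers and 203, 194 and 228 in the zinc-Dex livers. The 3 zinc-Dex livers were the highest of the 12. The log2 fold change of zinc-Dex over water-PBS was 0.48 (95% interval 0.20 to 0.77, DESeq2 adjusted p = 0.00506), under the fold threshold, and that of zinc-Dex over water-Dex was 0.29 (adjusted p = 0.45). Without zinc-PBS replicate 1 the same values of 0.48 and 0.29 had a DESeq2 adjusted p of 0.00782 and 0.491. Exons of Nfkbib overlap those of Sirt2, which lies on the opposite strand and had 5809 counts in the 12 libraries. The libraries were stranded, but the strand setting of the counting is not given in the sources used here, so a share of the Nfkbib reads from Sirt2 cannot be told apart.

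Nfkbiz had 139.7, 96.5 and 113 normalized counts in water-PBS livers and 918, 82.2 and 132 in zinc-PBS livers. It had 119, 102 and 134 in the water-Dex livers and 86.9, 103 and 136 in the zinc-Dex livers. Apart from the value of 918, the 11 livers overlapped fully. The log2 fold change of zinc-Dex against zinc-PBS was −1.80 (SE 0.752, DESeq2 adjusted p = 0.0752) with that liver and 0.03 (SE 0.260, adjusted p = 0.971) without it. It was called lower where zinc-PBS replicate 2 (−2.27, DESeq2 adjusted p = 0.0059) or replicate 3 (−2.20, adjusted p = 0.0312) was left out, which gives the high liver more weight.

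Tnfaip3 had 37.8, 36.4 and 46.1 normalized counts in water-PBS livers and 726, 44.6 and 81.5 in zinc-PBS livers. After Dex it had 56.9, 36.2 and 32.7 in water-drinking and 42.4, 56.7 and 44.2 in zinc-drinking mice. The 2 highest of the 12 values were both in zinc-PBS livers, and the other 10 overlapped. Tnfaip3 was called lower in zinc-Dex than in zinc-PBS livers with all libraries (log2 fold change −2.57, SE 0.857, DESeq2 adjusted p = 0.0172). Without zinc-PBS replicate 1 the difference was −0.40 (95% interval −1.05 to 0.25, adjusted p = 0.481). The call was also lost without zinc-Dex replicate 1 (−2.49, adjusted p = 0.0724) or replicate 3 (−2.52, adjusted p = 0.0685), and in a fit of the groups compared alone (−2.57, adjusted p = 0.107), while the fold change itself stayed close to that of all libraries. In water-drinking mice the log2 fold change was 0.06 with all livers and 0.07 (95% interval −0.55 to 0.68) without that one, so a change of Tnfaip3 with Dex was not detectable here.

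The early targets Icam1 and Tlr2 were both lower after Dex, with no overlap between the 6 Dex and the 6 PBS livers. Icam1, the adhesion molecule through which leukocytes attach to liver endothelium, had 139, 140.1 and 114 normalized counts in water-PBS and 628, 134 and 148 in zinc-PBS livers. It had 45.7, 40.4 and 39.6 in the water-Dex livers and 30.4, 31.1 and 34.6 in the zinc-Dex livers. The replicates of each group were close, zinc-PBS replicate 1 aside. Icam1 fell by 1.64 on the log2 scale in water-drinking mice (SE 0.556, DESeq2 adjusted p = 0.0183), and by 1.65 (SE 0.210, adjusted p = 1.5e-13) without zinc-PBS replicate 1. It fell by 3.24 in zinc-drinking mice (SE 0.558, DESeq2 adjusted p = 1.3e-07), and by 2.13 (SE 0.237, adjusted p = 1.6e-17) without that liver. In water-drinking mice, where all libraries were otherwise kept, the call was lost on leaving out water-PBS replicate 1 (adjusted p = 0.0661) or 2 (0.0824), or water-Dex replicate 2 (0.0751) or 3 (0.0757), while the log2 fold change stayed between −1.62 and −1.59. Icam1 was the only one of the 10 called lower in water-drinking mice, against 4.79% of all genes tested.

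Tlr2, the receptor for bacterial lipoproteins, had 42.0, 43.7 and 37.3 normalized counts in water-PBS and 314, 40.2 and 77.9 in zinc-PBS livers. It had 23.4, 13.8 and 12.9 in the water-Dex livers and 21.7, 15.6 and 15.4 in the zinc-Dex livers. The highest Dex liver, at 23.4, lay below the lowest PBS liver, at 37.3. In water-drinking mice the log2 fold change was −1.30 in both fits, with an SE of 0.695 (DESeq2 adjusted p = 0.189, not called) with all livers and an SE of 0.372 (adjusted p = 0.00391, called lower) without zinc-PBS replicate 1. Fitting the groups compared alone, which also leaves that liver out of the spread, gave −1.29 (DESeq2 adjusted p = 0.00719), and leaving out zinc-PBS replicate 2 gave −1.30 (adjusted p = 0.0254). Only 4 of 20 alternative settings called Tlr2 lower in water-drinking mice, and edgeR did not call it. In zinc-drinking mice Tlr2 fell by 3.04 (DESeq2 adjusted p = 0.00012) with all livers and by 1.75 (SE 0.395, adjusted p = 0.00012) without zinc-PBS replicate 1.

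**Figure D3:**
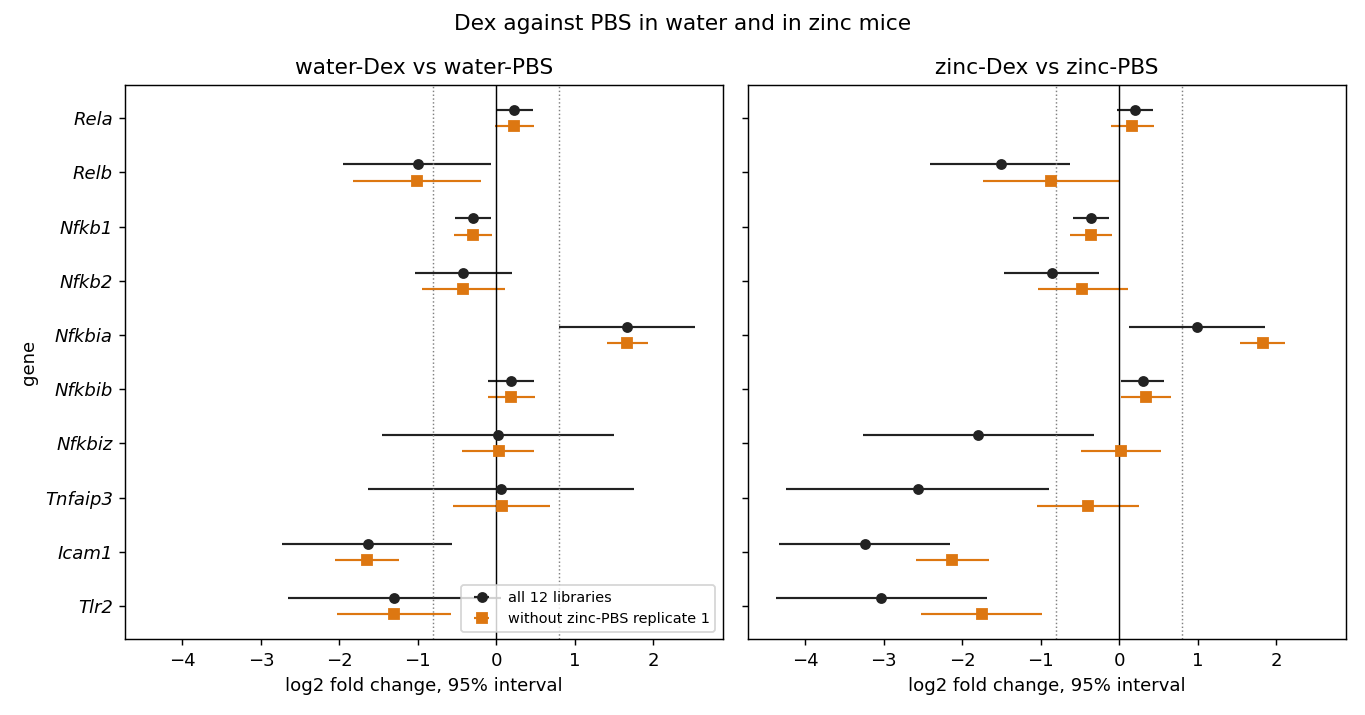
Log2 fold change of Dex against PBS for the 10 genes in water-drinking (left) and zinc-drinking (right) mice, with 95% intervals, from all 12 libraries (black circles) and without zinc-PBS replicate 1 (orange squares); dotted lines mark a log2 fold change of 0.8 in either direction. Without that liver both panels place Nfkbia at 1.67 and 1.83, Icam1 at −1.65 and −2.13 and Tlr2 at −1.30 and −1.75, and the 7 other genes lie nearer to 0.

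Counted over the list, Dex against PBS in water-drinking mice called 1 of 10 genes higher and 1 of 10 lower, and without zinc-PBS replicate 1 it called 1 higher (Nfkbia; 4.93% of all genes tested) and 2 lower (Icam1 and Tlr2; 4.63%). In zinc-drinking mice DESeq2 called 0 higher (5.0% of all genes tested) and 5 lower (Icam1, Tlr2, Tnfaip3, Relb and Nfkb2, against 4.68%). By DESeq2, 9 of 10 had an unadjusted p under 0.05. The share of all genes at that unadjusted p was not counted, here or below, so such counts have no background. By edgeR 1 was called higher (5.9% of all genes) and 5 lower (6.07%). Without that liver the same 3 genes as in water-drinking mice were called there, Nfkbia higher (5.53%) and Icam1 and Tlr2 lower (4.69%). The median log2 fold change of the 10 genes in zinc-drinking mice moved from −1.19 to −0.38 on leaving out the liver, and that of all genes tested was −0.01 and 0.00. In the livers as deposited, 4 genes (Relb, Nfkb1, Icam1 and Tlr2) lay lower in all 6 Dex than in all 6 PBS mice, as did 9.36% of all genes tested, and 0 lay wholly higher, as did 11.1%. Between zinc-Dex and water-PBS mice, which share the water-PBS livers with the comparison above, Nfkbia was higher (log2 fold change 1.80, DESeq2 adjusted p = 0.00045; 5.59% of all genes called higher) and Icam1 lower (−2.03, adjusted p = 0.00224; 5.63% called lower). Without zinc-PBS replicate 1, Tlr2 was called lower as well (−1.23, DESeq2 adjusted p = 0.00618; 5.46% called lower and 5.61% higher). The same value of −1.23 was called in a fit of these groups alone (DESeq2 adjusted p = 0.00845) and without zinc-PBS replicate 2 (adjusted p = 0.0331). Here too only 4 of 20 alternative settings called Tlr2, and edgeR did not.

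Marker sums also differed between Dex and PBS livers, and their part in these differences was not tested. The 6 hepatocyte markers summed to 1550496 to 1702379 normalized counts in the 6 Dex livers and 1153543 to 1339144 in the 6 PBS livers. Most of that sum was Alb, the albumin gene, and 1 of the 6 was called in water-drinking mice. It was Tat, a gene that glucocorticoids are known to induce, with a mean of 9502 in water-PBS and 62751 in water-Dex livers. The 7 lymphocyte markers summed to 15.2 to 29.3 in Dex and 35.8 to 58.7 in PBS livers. The sums of the 8 Kupffer cell markers overlapped, at 5196 to 6371 in Dex and 4916 to 6771 in PBS livers, and so did those of the endothelial, stellate and neutrophil markers. Single markers within these sums were nevertheless called by DESeq2 in water-drinking mice. Of 8 endothelial markers, Lyve1 was higher (mean 160 in water-PBS and 927 in water-Dex livers) and Kdr lower (892 and 405), and of 6 stellate markers, Pdgfrb was lower (120.3 and 56.2). Of 7 lymphocyte markers 2 were called lower there, and 1 of 4 monocyte markers, whose sums overlapped. Among the latter, Ccr2 was at 22.6 to 35.8 in the PBS livers other than zinc-PBS replicate 1 and 5.32 to 13.9 in the Dex livers. Plac8 went the other way, at 114 to 134 and 141 to 193.

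Zinc alone gave no call among the 10 genes in the fits of all 12 libraries. DESeq2 called 0 of 10 between zinc-PBS and water-PBS mice, against 17 of 12307 genes (0.138%). By DESeq2, 5 of 10 had an unadjusted p under 0.05 (Nfkbiz, Tnfaip3, Nfkb2, Icam1 and Tlr2). By edgeR 0 of 10 were called (0.0683% of all genes) and 6 had that unadjusted p. The share of all genes at that unadjusted p was not counted for either tool. The 5 genes named were among the 6 for which zinc-PBS replicate 1 was the highest liver. The log2 fold changes reached 2.82 for Tnfaip3 (DESeq2 adjusted p = 0.162) and 1.81 for Tlr2 (adjusted p = 0.434). The paper, at the same thresholds, lists both genes as raised by zinc in liver. In its list the SD of Tnfaip3 over the zinc mice exceeds their mean. Why its calls differ from those here was not tested. Without that liver 0 of 10 were called (0.094% of all genes) and 0 had an unadjusted p under 0.05, and the log2 fold changes were 0.65 for Tnfaip3 (95% interval 0.00 to 1.31), 0.52 for Tlr2 (−0.19 to 1.23) and −0.12 to 0.31 for the other 8. Both Tnfaip3 (3.33, DESeq2 adjusted p = 0.00499) and Tlr2 (2.26, adjusted p = 0.00091) were called higher with zinc where zinc-PBS replicate 2, the lowest of its group for these genes, was left out. The median of the 10 log2 fold changes was 0.77 with zinc-PBS replicate 1 and 0.11 without it, and that of all genes was 0.00.

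Zinc also gave no call on top of Dex. Between zinc-Dex and water-Dex mice 0 of 10 genes were called by DESeq2 (0.469% of all genes) and 0 by edgeR (0.159%), with 1 at an unadjusted p under 0.05 by each tool, which in DESeq2 was Nfkbib. Icam1 was lower in each zinc-Dex than in each water-Dex liver, but the log2 fold change of −0.39 had a 95% interval of −1.51 to 0.73 (DESeq2 adjusted p = 0.931), and without zinc-PBS replicate 1 it was −0.38 (−0.87 to 0.10). The interaction, which tests whether the Dex effect differed between zinc-drinking and water-drinking mice, called 0 of 10 by DESeq2 (0.0191% of all genes; 2 at an unadjusted p under 0.05) and 0 by edgeR (0.0228%; 0 at that p). Without zinc-PBS replicate 1 it called 0 as well (0.0686%; 0 at that p), with an interaction of 0.16 (95% interval −0.22 to 0.55) for Nfkbia, −0.48 (−1.10 to 0.14) for Icam1 and −0.45 (−1.51 to 0.61) for Tlr2. With all livers the interaction was −0.68 (95% interval −1.91 to 0.54) for Nfkbia, −1.60 (−3.14 to −0.05) for Icam1 and −1.74 (−3.65 to 0.17) for Tlr2. Icam1 and Tnfaip3 were the 2 genes with an unadjusted p under 0.05 by DESeq2 in that fit. A difference in the Dex effect on Nfkbia, Icam1 or Tlr2 was not called in either fit, and the intervals of each fit bound it for that fit only.

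Per kilobase of exon, the order of levels among the 10 genes in water-PBS livers ran from Nfkbia at 214 normalized counts per kb, Rela at 128 and Nfkbib at 68.9, over Icam1 at 30.0, Nfkb1 at 26.5, Nfkbiz at 23.2 and Nfkb2 at 18.9, to Tlr2 at 13.6, Relb at 6.28 and Tnfaip3 at 5.55. After Dex the gap widened at the top, with Nfkbia at 681 per kb in water-Dex livers and Icam1 at 9.61. The genes lie on 7 chromosomes (GRCm38, GENCODE M21 coordinates). Nfkbia is at chr12:55489410-55492647 and Tnfaip3 at chr10:19000910-19015657, both on the minus strand. Icam1 is at chr9:21015985-21028817 on the plus strand and Tlr2 at chr3:83836272-83841767 on the minus strand.

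Other genes of the pathway were examined in lists of related function, drawn up from general knowledge. Among 22 other early targets, 15 had an adjusted p in the comparison of Dex and PBS in water-drinking mice. Of these, 2 were called higher (4.89% of all genes tested) and 5 lower (4.79%), with a median log2 fold change of −1.09 against −0.01 for all genes tested. The counts were 2 higher (4.93%) and 6 lower (4.63%) without zinc-PBS replicate 1, Cxcl1 being added (−2.95, DESeq2 adjusted p = 3.3e-07). The called genes with more reads were Gadd45b, a stress-response gene, at a log2 fold change of 3.97 (DESeq2 adjusted p = 1.6e-10), Zfp36, which codes for an mRNA-destabilising protein, at 1.16 (adjusted p = 0.0329), the transcription factor Irf1 at −2.54 (adjusted p = 1.4e-06) and the macrophage growth factor Csf1 at −1.29 (adjusted p = 2.4e-09). The other 3 called lower are named with their values already known. The cytokine gene Il1b stood at 26.4 to 29.4 normalized counts in water-PBS and 0 to 4.06 in water-Dex livers, the activation marker Cd83 at 20.9 to 31.9 and 1.06 to 3.96, and the chemokine gene Ccl2 at 6.59 to 13.7 and 0 to 1.02. In zinc-drinking mice with all livers, 18 had an adjusted p, and 1 was called higher (5.0% of all genes tested) and 8 lower (4.68%). In zinc-drinking mice without zinc-PBS replicate 1, 15 had an adjusted p, and 2 were called higher (5.53%) and 6 lower (4.69%). There the chemokine gene Cxcl1, which attracts neutrophils, was at −3.72 (DESeq2 adjusted p = 8.6e-10), and with all livers at −7.04 (adjusted p = 1.3e-07). Cxcl1 stood at 3021 normalized counts in zinc-PBS replicate 1, at 47.2 to 163 in the other 5 PBS livers and at 3.19 to 14.8 in the Dex livers. Zinc-PBS replicate 1 was the highest of 12 livers for 15 of these 22 genes, as it was for 6 of the 10 members. The same held for 4 of 8 other subunits and inhibitors and 7 of 37 upstream kinases and adaptors. It held for 2 of 14 genes of the Toll-like receptor family and 1 of 8 other adhesion molecules. The share of all genes highest in this liver was not counted.

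The other lists were compared in the same way, against 4.89% of all genes tested called higher and 4.79% lower in water-drinking mice. Of 8 other subunits and inhibitors, 7 had an adjusted p in water-drinking mice, with a median log2 fold change of −0.07, and 1 was called. It was Nfkbie, another cytoplasmic IκB, named after its values were seen, at −1.19 (DESeq2 adjusted p = 0.0121, and 0.0107 without zinc-PBS replicate 1). Bcl3, a nuclear IκB, was called lower in zinc-Dex than in zinc-PBS livers, at −2.19 (DESeq2 adjusted p = 4.8e-07) and −1.63 (adjusted p = 1.3e-09) without zinc-PBS replicate 1. Without that liver it was also called in water-drinking mice, at −0.83 (DESeq2 adjusted p = 0.00156). Of 37 upstream kinases and adaptors, 36 had an adjusted p in water-drinking mice, with a median of −0.02, and 2 were called higher and 1 lower, with that liver and without it. The TNF receptor gene Tnfrsf1b rose there by 1.25 (adjusted p = 2.8e-22) and the adaptor kinase gene Irak2 fell by 1.10 (adjusted p = 1.9e-05). Between zinc-Dex and zinc-PBS livers Ticam1 was higher by 1.13 (DESeq2 adjusted p = 6.5e-15) and Rnf31 lower by 0.81 (adjusted p = 2.6e-05). Traf3 was lower by 0.83 in zinc-Dex than in water-PBS livers (DESeq2 adjusted p = 2.2e-05). Each of these genes kept its call without zinc-PBS replicate 1. Of 14 genes of the Toll-like receptor family and its co-receptors, 13 had an adjusted p in water-drinking mice. There 4 were called higher and 3 lower, with a median of −0.32. On leaving out that liver, 4 were higher and 2 lower, Tlr1 losing its call (DESeq2 adjusted p = 0.0436 with and 0.0519 without it). Tlr7 was at 1.12 (adjusted p = 5.7e-07), Cd14, a co-receptor for lipopolysaccharide, at 1.04 (adjusted p = 0.00502), Lbp at 0.97 (adjusted p = 3.1e-12), Tlr13 at 2.00-fold higher (adjusted p = 0.0209) and Tlr3, a sensor of double-stranded RNA, at −1.02 (adjusted p = 2.3e-05). In zinc-drinking mice with all livers, 2 of the 14 were called higher (5.0% of all genes tested) and 1 lower (4.68%). The 2 were Tlr7 (1.39, DESeq2 adjusted p = 1.2e-10) and Cd14 (0.83, adjusted p = 0.0327), while Lbp, Tlr13 and Tlr3 were not called there. Of 8 other adhesion molecules, 5 had an adjusted p in water-drinking mice, with a median of −0.26, and 1 was called, Vcam1, which also anchors leukocytes to endothelium. Vcam1 was at 1.69 in water-drinking mice (DESeq2 adjusted p = 1e-19) and 1.53 in zinc-drinking mice (adjusted p = 1.5e-16, and 1.73 without zinc-PBS replicate 1, adjusted p = 2.2e-21), in the direction opposite to Icam1. All p-values of these paragraphs were adjusted over every gene tested.

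**Figure D4:**
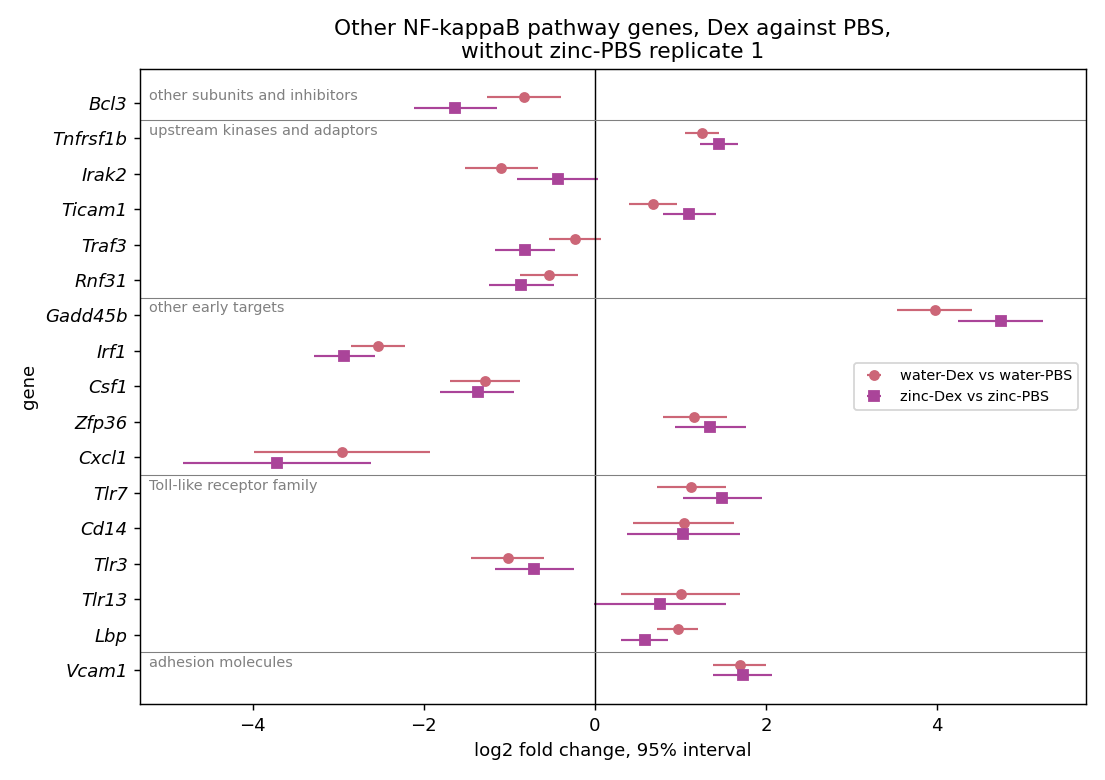
Log2 fold change of Dex against PBS, with 95% intervals, for genes of the further pathway lists in water-drinking (circles) and zinc-drinking (squares) mice, from the fit without zinc-PBS replicate 1. Shown are genes called in some comparison with all libraries and averaging 50 or more normalized counts, at most 5 per list and comparison. Called genes with fewer counts, among them Nfkbie, Il1b, Cd83 and Ccl2, are absent. Gadd45b reaches 3.97 and 4.74 and Vcam1 1.69 and 1.73, while Irf1 lies at −2.53 and −2.93.

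Genes whose levels across the 12 livers were much like those of Nfkbia were Sowahc (Pearson r = 0.978), Zfp36 (0.967), Rhob (0.964) and Fosl2 (0.961), among 9574 genes compared on log2 values. These values were 0.959 to 0.976 without zinc-PBS replicate 1. For Tnfaip3 the leading genes were Mup7 (0.868) and Myd88 (0.865), whose r fell to −0.195 and 0.273 without that liver, so this likeness rested on 1 library. All such values are descriptions over livers that share the treatment groups.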

How the data were processed

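Livers of 12 mice, labelled as biological replicates, were profiled by stranded single-end RNA-seq. Per the study's methods and the submitters' processing notes, the authors trimmed reads (Trimmomatic), mapped them to mm10 with HISAT2 2.0.4 and deposited raw counts per Ensembl gene from featureCounts, without multimapping reads; the annotation release and strand setting are not given in the sources used here. Symbols, positions and exon lengths came from GENCODE M21, which matched 54809 of 54838 genes. DESeq2 1.42.0 (R 4.3.3) was fitted to all 12 libraries with 1 coefficient per group, and Wald p-values were adjusted by Benjamini-Hochberg over all genes. A call required an adjusted p below 0.05 together with a log2 change of more than 0.8 in size. Alternatives were edgeR 4.0.16 (quasi-likelihood), TMM factors, a filter of 10 counts in 3 libraries, a replicate block, no Cook's distance or independent filter, only the groups compared, no fold threshold and each library left out. The DESeq2 and edgeR fits were also run on simulated counts. These held no single outlying library, so that run does not bear on the effect of zinc-PBS replicate 1. Levels were normalized counts (counts divided by DESeq2 size factors), and correlations used log2(normalized count + 1). All members, lists and motifs were chosen with earlier results of these data known. Besides the members, genes of the pathway lists were named where they were called and averaged 50 or more normalized counts, at most 5 per list and comparison, ranked by fold change. Nfkbie, Il1b, Cd83, Ccl2 and Tlr1 averaged less and were named with their values known. Markers, acute phase genes and genes that check the labels fell outside this rule. One gene with levels like those of Nfkbia is not reported here. Kupffer, endothelial, stellate, neutrophil, monocyte, lymphocyte and hepatocyte markers were summed per library; the 4 monocyte markers summed to 149 to 177 in PBS and 155 to 216 in Dex livers.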

Additional observations from a re-analysis of the deposited data

How the results depend on the processing

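Over 60 fold changes of the 10 genes and 1160 values under the alternatives, 0 changed direction past the threshold, 12 lost a call and 16 gained one; most are given beside the results. Leaving out each library in turn gave 0 to 2 of 10 genes called for zinc-PBS against water-PBS, 1 to 3 for water-Dex against water-PBS, and 3 to 6 for zinc-Dex against zinc-PBS. Over all genes it gave 1193 to 1350 calls for water-Dex against water-PBS (1376 with all libraries) and 1312 to 1469 for zinc-Dex against zinc-PBS (1516). The calls over all genes were 11 to 38 for zinc-PBS against water-PBS (17 with all libraries), 26 to 101 for zinc-Dex against water-Dex (60) and 4 to 23 for the interaction (5). edgeR called 9, 21 and 3 genes in these 3 comparisons. Without the fold threshold the calls were 42 for zinc-PBS against water-PBS, 173 for zinc-Dex against water-Dex, 3067 for water-Dex against water-PBS, 3475 for zinc-Dex against water-PBS and 3145 for zinc-Dex against zinc-PBS; the fewer criteria account for the rise. Replicate numbers did not pair the samples: deviations of same-numbered livers correlated at −0.204 to 0.191, with 1 of 18 pairs over 0.1. With the replicate block, the interaction called 8 genes, Tnfaip3 lost its call in zinc-Dex against zinc-PBS (log2 fold change −1.92, DESeq2 adjusted p = 0.0889), and Tlr2 was called lower in water-Dex (−1.42, adjusted p = 0.0156) and zinc-Dex (−1.31, adjusted p = 0.025) against water-PBS. For the interaction, a fit of only the groups compared was not possible, as it needs all 4. With 3 mice per group and 9 to 78 raw counts of Relb, differences of low genes under the interval widths given were not detectable at this depth.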
